A study of Rattus norvegicus with 8 samples.

Results

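The genes described here are brain-gut peptides, which act both as hormones of the gut and as transmitters of the brain, and receptors of 2 of them. They were taken by name: the peptide genes Cck, Nts, Tac1, Adcyap1, Vip and Grp, and the receptor genes Cckar, Cckbr, Ntsr1 and Ntsr2. All 10 had at least 1 row in the data, with 22 polyadenylation sites in all, among 98356 sites of the series, of which 64313 carried 1 of 18003 gene symbols. Hypothalamic RNA of adult male Long-Evans rats was read by whole transcriptome termini site sequencing (WTTS-Seq), in which a read marks the 3′ end of a polyadenylated transcript. The libraries are of 4 rats that inhaled vapor of cannabis plant matter and 4, the air controls, that went through the same session without plant matter. The paper states 8 rats per group for this cohort but 8 libraries in all, and does not explain the difference. The labels give no genotype beyond the strain. Rats were accustomed to the chamber beforehand and fed freely, the methods state for the exposed rats that food was withheld before collection, and the hypothalamus was cut out of the frozen brain 1 hr after exposure. The exposed rats carry the numbers 1, 2, 3 and 5 in the labels and the controls the numbers 1 to 4. The dissected piece is named hypothalamus in the sample labels and mediobasal hypothalamus in the series description, and holds neurons of many nuclei together with glia.

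Cholecystokinin, from Cck, is released by the gut after a meal and is one of the most abundant peptides of forebrain and midbrain neurons. It acts on the CCK-A receptor (Cckar), which carries much of its satiety effect, and on the CCK-B receptor (Cckbr), the main form in the brain. Neurotensin (Nts), substance P and neurokinin A (both from Tac1), PACAP (Adcyap1), VIP (Vip) and gastrin-releasing peptide (Grp) are likewise cut out of larger precursors, stored in dense-core vesicles and act on G protein-coupled receptors. Neurotensin and several of the others reduce feeding when given into the brain, while Vip and Grp mark neurons of the suprachiasmatic nucleus, the circadian pacemaker.

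Values are normalized counts, that is, reads on a site divided by the size factor of the library. A gene total is the sum over all sites with the same symbol. As 1 read stands for 1 transcript end, the values hold no term for transcript length, and levels of different genes are compared here as counts of ends. The libraries held from 1159811 to 3706778 reads on sites, fewest in air control 4 and next fewest in cannabis 1, and 1 read was worth from 0.664 to 1.99 normalized counts. Differences are on the scale of log2(normalized count + 1), cannabis minus air control, from a limma fit over all 18003 gene totals, and a gene was called where the unadjusted p was under 0.01. Of all gene totals, 50 were called (0.278%), of which 32 were lower (0.178%) and 18 higher with cannabis, a balance that turned to 35 lower and 49 higher without air control 3. On the reads recovered from the values, edgeR called 54 (0.300%), 42 lower and 12 higher, and DESeq2 called 76 (0.423%), 64 lower and 12 higher. Of the single sites 375 were called (0.381%), 254 of them lower (0.258%) and 121 higher (0.123%).

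Of the 10 genes, only Cck was called, and it was lower in cannabis-exposed rats. It was also the only one whose groups did not overlap, where the groups of 1.98% of all genes did not, with every exposed rat below every control in 0.783% and above in 1.19%. The median difference over the 10 genes was 0.12, with 7 estimates above and 3 below 0, beside a median of 0.05 over all genes. The 10 genes spanned a wide range of levels. Ntsr2 was at 663 normalized counts on average over the 8 libraries, Tac1 at 461, Adcyap1 at 171, Cck at 81.9, Nts at 60.9 and Vip at 59.1, and the other receptors and Grp lay below 22.

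**Figure D1:**
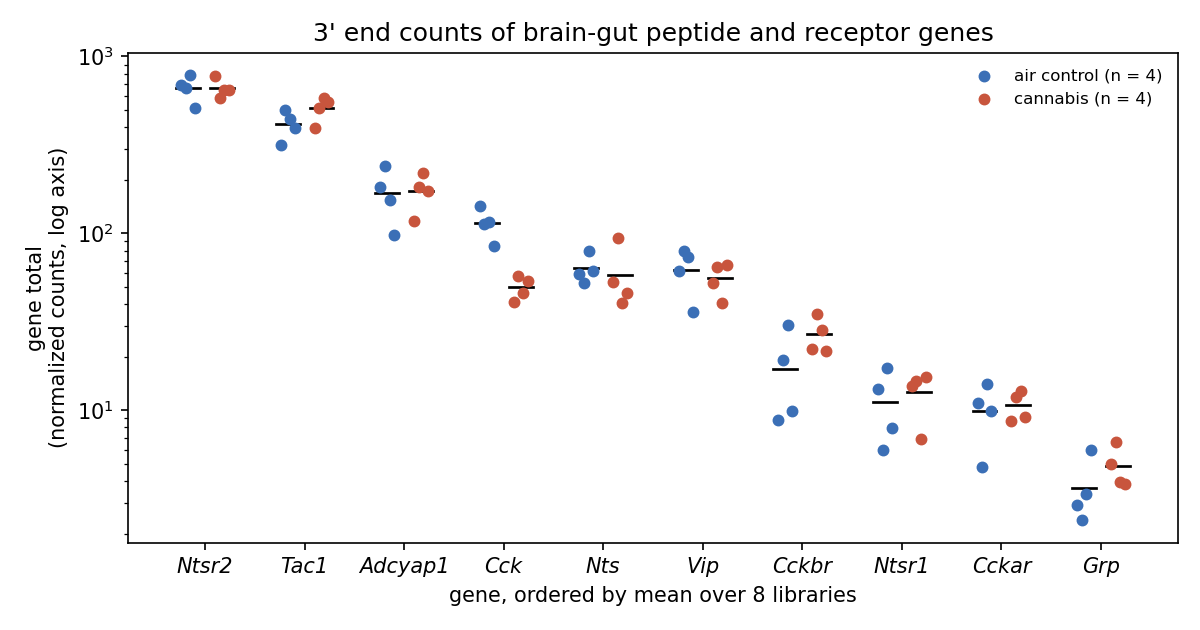
Gene totals in normalized counts (log axis) of the 10 genes, ordered by their mean over the 8 libraries. Each point is 1 library and each black line a group mean; the 4 cannabis libraries of Cck sit between 41.0 and 57.1, all below the 4 air controls, while the groups of every other gene overlap.

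Cck had a single site, which overlapped its annotated transcript on chromosome 8 of Rnor_6.0 from 130120517 to 130120537 on the minus strand. The air controls 1 to 4 had 143, 113, 115 and 85.4 normalized counts of Cck, from 43 to 196 reads. The cannabis-exposed rats 1, 2, 3 and 5 had 41.0, 57.1, 46.2 and 53.8 normalized counts, from 33 to 86 reads. Every exposed rat lay below every control, and the lowest control was still well above the highest exposed rat. The group means were 114 ± 23.7 and 49.5 ± 7.29 (SD, n = 4 each), a fold of 0.442. The log2 difference was -1.18 (standard error 0.24, 95% interval -1.70 to -0.66) with p = 0.000278 and an adjusted p of 0.999 in limma over all gene totals, and the exact two-sided permutation test gave p = 0.0286, the smallest that 4 against 4 rats allow. In the limma fit over all 98356 sites the Cck site was called as well, at an adjusted p of 1.0. The Cck site was singled out by the study in the same libraries, so its direction here is no independent evidence. In a separate cohort the paper reports Cck abundance by quantitative PCR as reduced, but without statistical significance.

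Whether Cck passed an adjusted threshold differed between tools, and within DESeq2 between gene totals and sites. On the reads recovered from the normalized counts, edgeR gave a log2 difference of -1.26 with an adjusted p of 0.384, and 2 genes had an adjusted p under 0.1 there (0.0111%). DESeq2 gave -1.27 with an adjusted p of 0.00138, and Cck was 1 of 7 genes with an adjusted p under 0.1 there (0.0389% of 17977 tested). As Cck has a single site, its counts are the same in the table of sites. There DESeq2 gave -1.21 with an unadjusted p of 0.000223. The Cck site was not among the 4 of 98082 tested sites with an adjusted p under 0.1. Over the 16 alternative settings the log2 difference lay between -1.35 and -1.06, the unadjusted p between 2.3e-07 and 0.00172, and the adjusted p between 0.00138 and 1.0.

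**Figure D2:**
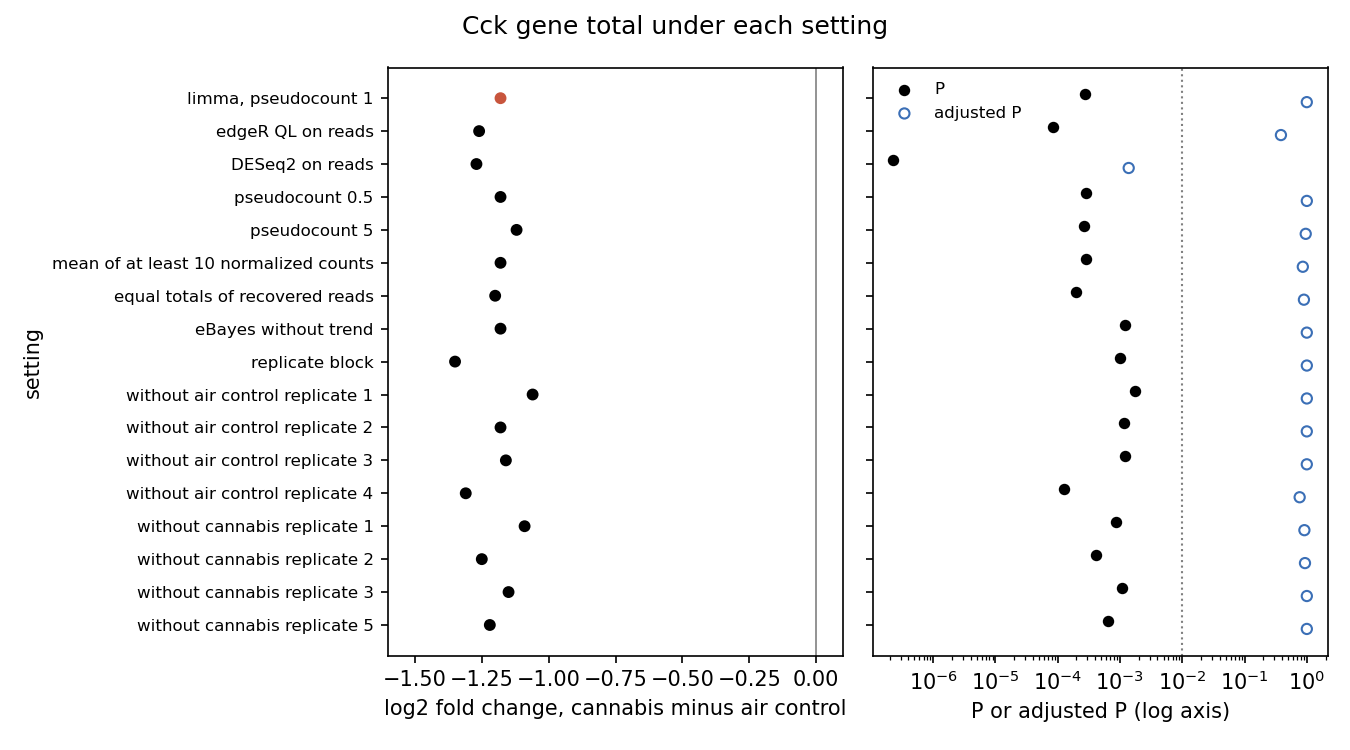
Cck gene total under the fit used here (red) and 16 alternatives. The left panel gives the log2 difference, cannabis minus air control, which stays between -1.35 and -1.06; the right panel gives the unadjusted p (filled) and the adjusted p (open) on a log axis, with a dotted line at 0.01, and only DESeq2 puts the adjusted p to the left of it.

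The spread of Cck among rats was above that of counting alone in controls and close to it in exposed rats. The coefficient of variation was 20.7% in controls, where counting reads would give 9.7%, and 14.7% in exposed rats, where it would give 13.4%. Set against the other genes within the same library, which removes the size factor, Cck was also lower. In all 4 controls Cck was higher than Nts and higher than Vip. In exposed rats it was higher than Nts in 2 libraries and higher than Vip in 1. The ratio of Cck to Vip had a median of 1.95 in controls and 0.85 in exposed rats (exact permutation test on the log2 ratio, p = 0.0286), and the ratio to Tac1 had a median of 0.243 and 0.101 (exact permutation test, p = 0.0286). For 8 of the 9 other genes the ratios of the groups did not overlap. The exception was Ntsr1, with ratios from 6.62 to 18.8 in controls and from 3.0 to 6.71 in exposed rats. All of these ratios share the Cck values, whose groups were already apart, so they restate the Cck difference and are no separate evidence for it.

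Ventral midbrain dopamine neurons are a cell type in which Cck is a known co-transmitter. A list of 14 of their genes, of which En2 and Foxa2 had no row, had 9 estimates below and 3 above 0 in the same libraries. Its summed level was from 916 to 1157 normalized counts in controls and from 338 to 501 in exposed rats, without overlap. Of its 12 measured genes 4 were called, where 0.278% of all genes were, 0.178% lower. All 4 were lower, namely Slc6a3, the dopamine transporter, with a log2 difference of -3.30, En1, a midbrain homeobox gene, with -2.72, Th, the rate-limiting enzyme of dopamine synthesis, with -1.43, and Ddc, the next enzyme of that pathway, with -0.81. Slc6a3 had an adjusted p of 0.0218 from limma and the other 3 from 0.107 to 0.999. Much of the list's sum was Slc6a3, with means of 270 in controls and 31.8 in exposed rats, and Th, with 305 and 117. The groups overlapped in every gene of the list that was not called. At least Th, Ddc, Slc18a2, Drd2 and Nr4a2 are also made by neurons of the hypothalamus itself. Whether the other genes of the list, Slc6a3 among them, are made there too was not examined. Among these other genes, Lmx1a was at 18.9 ± 6.81 in controls and 20.4 ± 6.28 in exposed rats (SD, n = 4 each). Foxa1 was at 3.18 ± 2.05 and 5.87 ± 2.98, and Lmx1b at 2.06 ± 2.85 and 1.99 ± 1.03. Pitx3, with 16 reads in all, was at 0 in 1 control and 3 exposed rats. The part of these genes in the Cck result was not tested. The list was written with earlier results of these data known, and the study had singled out sites of Slc6a3, En1 and Th in the same libraries. In RNA of a whole dissected piece, fewer cells of a type and less RNA per cell cannot be told apart.

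**Figure D3:**
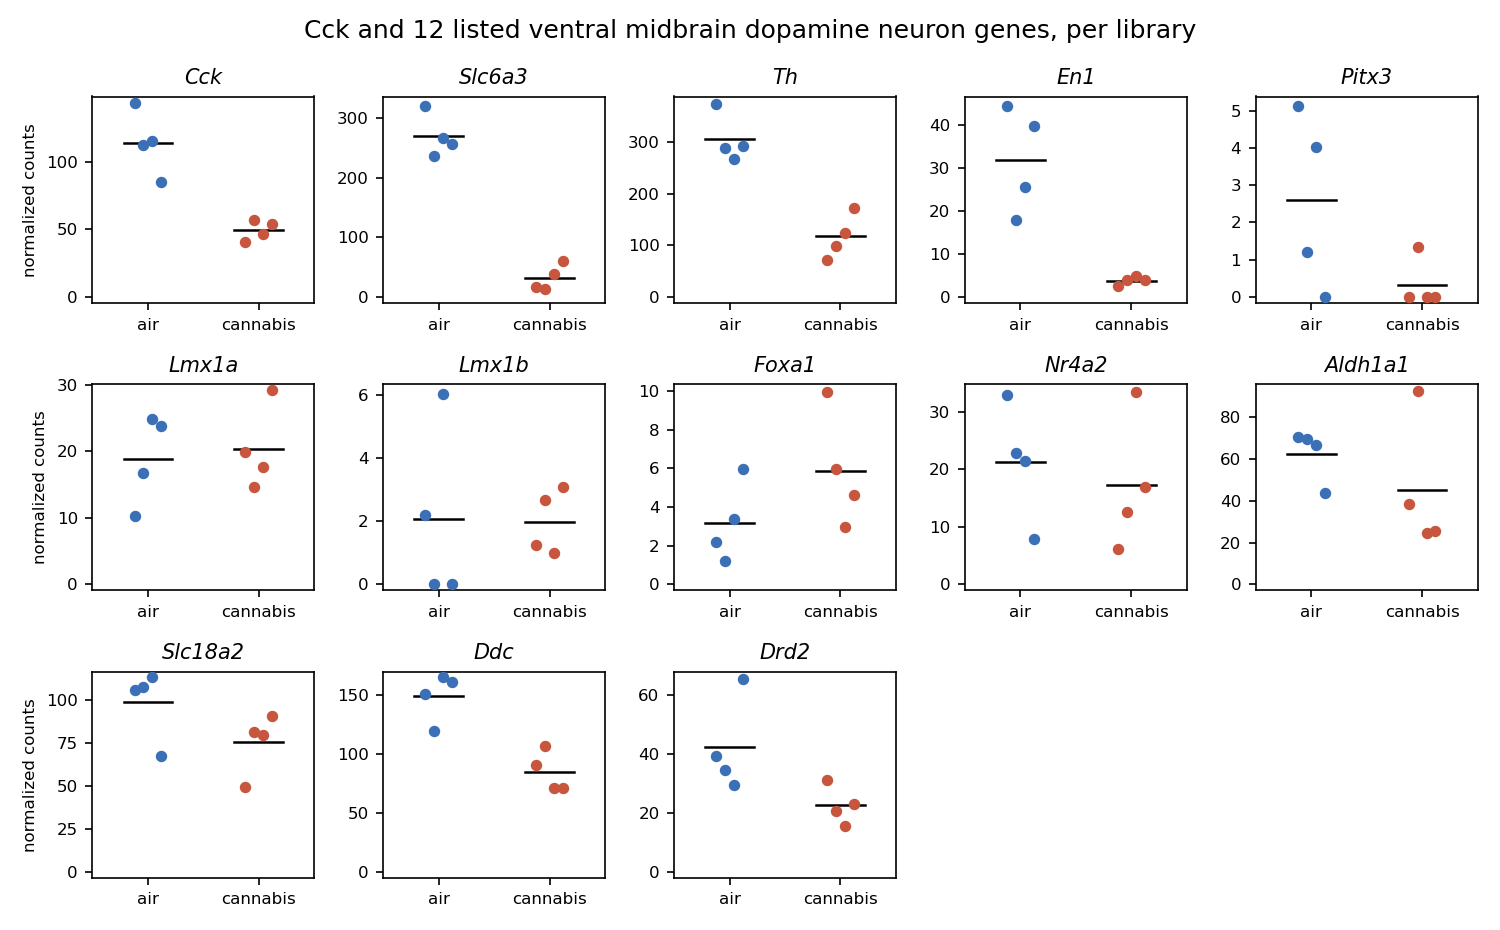
Gene totals in normalized counts of Cck and of the 12 measured genes of the ventral midbrain dopamine neuron list, each panel from 0 with its own axis. Points are libraries (4 air controls, 4 cannabis) and black lines group means; Cck, Slc6a3, Th, En1 and Ddc separate the groups, while Lmx1a, Lmx1b, Foxa1, Nr4a2, Aldh1a1 and Slc18a2 overlap.

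Among 9625 other genes with a mean total of at least 20 normalized counts, 5 followed Cck most closely over the 8 libraries. The measure was the root mean square difference of log2 totals centred on each gene's own mean, and its median over all 9625 genes was 0.747. Mllt10, a chromatin cofactor, was nearest at 0.249, with 60.9 normalized counts on average in controls and 35.9 in exposed rats. Ptms, which encodes parathymosin, followed at 0.27 with 734 and 338, then LOC108352127, an uncharacterized locus, at 0.294 with 65.7 and 37.6. Wdr45, an autophagy gene, was at 0.316 with 37.1 and 22.4, and St8sia5, a sialyltransferase of gangliosides, at 0.316 with 51.8 and 29.03. All 5 were lower on average in exposed rats, as the measure itself required. Of these, Ptms and LOC108352127 were called and the others were not. The study had already singled out sites of Ptms and LOC108352127 in the same libraries.

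Both receptors of cholecystokinin were at low levels, and neither was called. Cckbr had 8.77, 19.2, 30.2 and 9.93 normalized counts in air controls 1 to 4 and 22.4, 35.2, 28.5 and 21.5 in cannabis-exposed rats 1, 2, 3 and 5. Air control 3 lay within the range of the exposed rats and the other 3 controls below it. These values rest on 206 reads in all, with 12 in control 1 and 5 in control 4. The log2 difference of Cckbr was 0.77 (standard error 0.40, 95% interval -0.10 to 1.63) with p = 0.0792 and an adjusted p of 0.999 in limma, against 0.1429 by exact permutation. Its size moved with single libraries, between 0.53 without control 1 and 1.08 without control 3 (adjusted p = 1.0 and 0.999 in limma). Cckar had from 4.79 to 14.1 normalized counts in controls and from 8.69 to 12.8 in exposed rats, on 95 reads in all, with a log2 difference of 0.16 (95% interval -0.72 to 1.04, exact permutation p = 0.7429).

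Tac1, the precursor gene of substance P and neurokinin A, was the highest of the peptide genes, with 4100 reads on 1 site. That site overlapped the annotated transcript on chromosome 4 of Rnor_6.0 from 33646800 to 33647188 on the plus strand. Tac1 had 314, 498, 444 and 395 normalized counts in air controls 1 to 4 and 394, 510, 583 and 550 in cannabis-exposed rats 1, 2, 3 and 5. The groups overlapped, with cannabis 1 below 3 of the 4 controls. The log2 difference was 0.31 (standard error 0.21, 95% interval -0.15 to 0.76) with an adjusted p of 0.999 in limma and an exact permutation p of 0.1714. Its receptors belong to the list of receptors given further on. Tacr2, the neurokinin A receptor, had from 10.8 to 23.8 normalized counts in controls and from 3.07 to 11.96 in exposed rats, on 99 reads in all, and the groups overlapped. The log2 difference of Tacr2 was -1.14 (95% interval -2.16 to -0.12), which was not called, with an adjusted p of 0.999 in limma at an unadjusted 0.0311 and an exact permutation p of 0.0857. Tacr1, the substance P receptor, had 81.3 ± 15.2 normalized counts in controls and 84.7 ± 18.3 in exposed rats, and Tacr3, the receptor of neurokinin B, had 87.3 ± 13.8 and 87.4 ± 10.5 (SD, n = 4 each).

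Neurotensin transcripts came from 2 sites. The Nts total was 59.2, 52.7, 79.9 and 61.6 normalized counts in air controls 1 to 4 and 53.4, 94.3, 40.3 and 46.1 in cannabis-exposed rats 1, 2, 3 and 5. The exposed rats held both the highest and the lowest library, cannabis 2 and cannabis 3. The log2 difference of Nts was -0.17 (standard error 0.29, 95% interval -0.80 to 0.46) and the exact permutation p was 0.6. In exposed rats the coefficient of variation was 41.8%, against 12.2% from counting alone, and in controls it was 18.4% against 13.3%. The leading Nts site held 78.8% ± 8.92 of the total in controls and 70.5% ± 9.83 in exposed rats (SD, n = 4 each). The exact permutation test of this share gave p = 0.2286, and its log2 difference was -0.16 with an adjusted p of 1.0 in a limma fit over 54160 sites of genes with several sites.

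The 2 neurotensin receptors differed widely in level. Ntsr2, the low-affinity receptor, which astrocytes express strongly, was the highest of the 10 genes and at or above 97.8% of all genes. Its main site overlapped the annotated transcript on chromosome 6 of Rnor_6.0 from 41923760 to 41924109 on the plus strand and held at least 99.1% of the total in every library. Ntsr2 had 686, 663, 783 and 514 normalized counts in air controls 1 to 4 and 772, 586, 648 and 647 in cannabis-exposed rats 1, 2, 3 and 5, with control 4 the lowest and control 3 the highest. Its means of 662 ± 111 and 664 ± 78.2 (SD, n = 4 each) gave a log2 difference of 0.01 and the narrowest interval of the 10 genes, from -0.41 to 0.43 (exact permutation p = 1.0). Ntsr1, the high-affinity receptor of neurons, had from 5.99 to 17.5 normalized counts in controls and from 6.89 to 15.4 in exposed rats, on 113 reads in all, with a log2 difference of 0.21 (95% interval -0.71 to 1.14, exact permutation p = 0.6857).

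PACAP transcripts were spread over 9 sites, the most of the 10 genes. The Adcyap1 total was 183, 239, 154 and 97.3 normalized counts in air controls 1 to 4 and 118, 184, 220 and 174 in cannabis-exposed rats 1, 2, 3 and 5. The lowest library of each group was the one with the fewest reads of that group. Control 2, next fewest in reads among the controls, was the highest of all libraries. The log2 difference of Adcyap1 was 0.09 (standard error 0.29, 95% interval -0.53 to 0.70) and the exact permutation p was 0.7714. The coefficient of variation was 35.2% in controls and 24.3% in exposed rats, against 7.9% and 7.1% from counting alone. A list of 6 transcription factor genes of the mammillary region, where Adcyap1 is strongly expressed, had its lowest sums in the same libraries, 55.6 normalized counts in control 4 and 78.2 in cannabis 1, and its highest, 147 and 144, in control 2 and cannabis 3, which were also highest in Adcyap1. Its receptor Adcyap1r1 had 230 normalized counts in control 4 and 262 in cannabis 1, and from 404 to 583 in the other 6 libraries. The low values were not particular to mammillary genes. Pmch, at 346 in control 4 and 580 in cannabis 1, was lowest of each group there. So was Hcrt, at 89.4 and 192, but Trh, at 620, was highest of the controls in control 4. The part of depth or of the mammillary genes in the spread of Adcyap1 was not tested.

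The same Adcyap1 site led in every library. The leading site held from 41.0% to 62.5% of the total in controls and from 46.4% to 63.2% in exposed rats. The next 2 sites by mean level held 13.8% ± 2.53 and 10.3% ± 4.99 in controls and 11.5% ± 3.25 and 13.3% ± 4.54 in exposed rats (SD, n = 4 each). The last 4 sites had from 16 to 47 reads each over all libraries, so that their shares rest on a few reads per library. No share of any of the 17 sites of Adcyap1, Nts, Vip, Cckar and Ntsr2 was called, where 0.467% of all 54160 site shares were, 0.233% lower and 0.234% higher. The smallest adjusted p of the 17 in limma was 1.0, at an unadjusted 0.208.

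**Figure D4:**
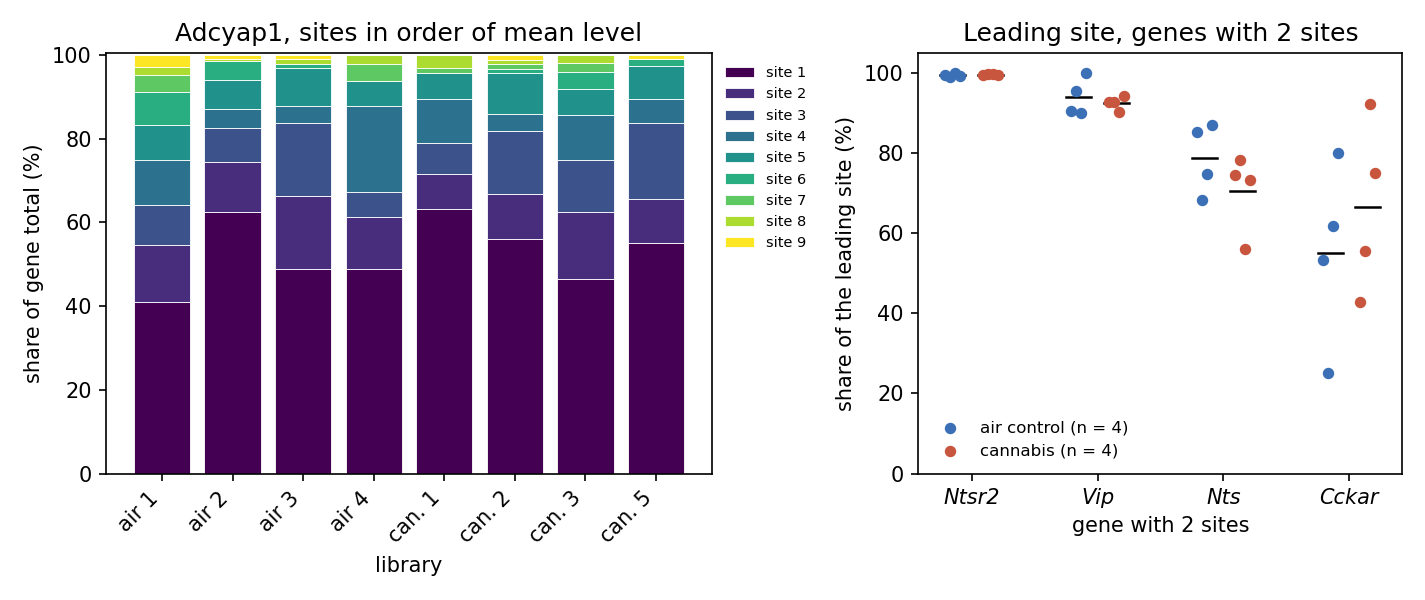
Left, the share of the Adcyap1 total in percent held by each of its 9 sites in each library, numbered in order of mean level. Right, the share in percent of the leading site of the 4 genes with 2 sites, with libraries as points and group means as black lines; the Ntsr2 leading site holds at least 99.1% everywhere, while the Cckar share runs from 25.0% to 92.3% on few reads, and the groups overlap in each gene.

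Vip, which marks the retina-receiving core of the suprachiasmatic nucleus, had 61.4, 79.0, 73.8 and 35.7 normalized counts in air controls 1 to 4 and 52.2, 64.4, 40.3 and 66.0 in cannabis-exposed rats 1, 2, 3 and 5. Control 4 was the lowest and the groups overlapped. The log2 difference of Vip was -0.13 (standard error 0.30, 95% interval -0.77 to 0.51) and the exact permutation p was 0.6571. Grp, which marks a neighbouring group of cells of that nucleus, was the lowest of the 10 genes, with 37 reads over all libraries and from 2 to 10 in each. It had from 2.39 to 5.96 normalized counts in controls and from 3.84 to 6.64 in exposed rats, with a log2 difference of 0.36 (95% interval -0.64 to 1.36, exact permutation p = 0.2286). These levels lie around the floor of 3 reads, which was worth from 1.99 to 5.96 normalized counts, and the interval is the widest of the 10 genes. A list of suprachiasmatic genes, of which Prok2 and Nms had no row, summed to between 411 and 576 normalized counts in controls and between 317 and 645 in exposed rats.

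**Figure D5:**
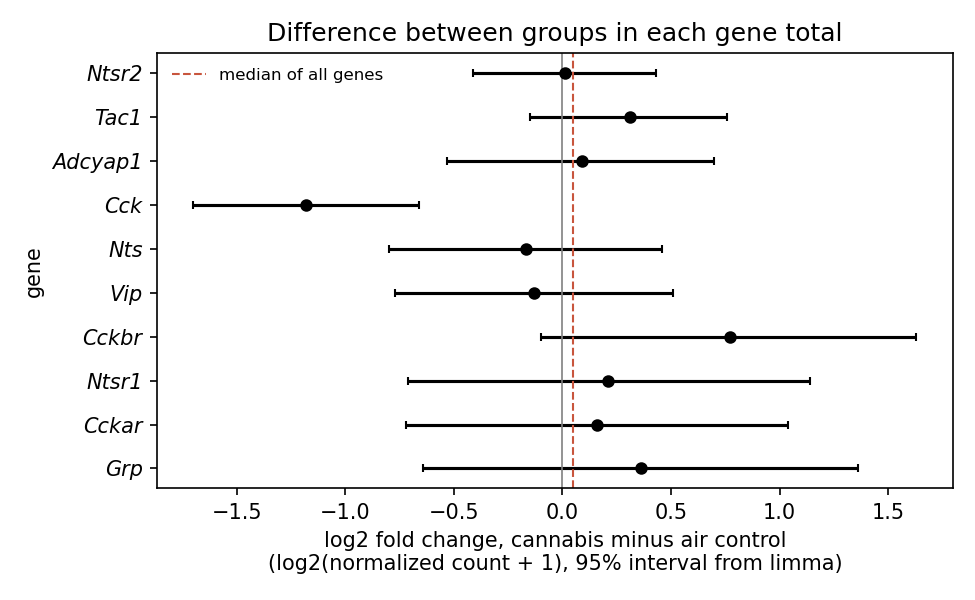
Log2 difference of each gene total, cannabis minus air control, on the log2(normalized count + 1) scale, with 95% intervals from limma (n = 4 rats per group). The interval of Cck, from -1.70 to -0.66, is the only one that excludes 0; the dashed line marks the median of all genes at 0.05.

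Several peptide genes are known to be switched on through cyclic AMP, by factors that bind the motif TGACG, one arm of the palindrome TGACGTCA. RefSeq promoter sequence of the GRCr8 build, from 250 bases before to 50 after the gene start, was at hand for 8 of the 10 genes, and not for Cck and Cckar. The arm TGACG, on either strand, was in the promoters of Vip, Tac1, Nts, Ntsr1 and Grp, and in 21.2% of all 33469 promoters of the table. The full palindrome was in 1.83% of all promoters and in none of the 8. The matches in Vip, Tac1, Nts and Ntsr1 are shown as windows of 30 bases of the gene's own strand, with the match in capitals, at chr1:44470371-44470400, chr4:36645365-36645394, chr7:39461042-39461071 and chr3:187983590-187983619.
Vip: ggatcaccactgTGACGtctttcgaggagc
Tac1: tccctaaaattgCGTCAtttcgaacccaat
Nts: attagggaagatCGTCActttcaatcaagg
Ntsr1: tgcagaggcaacCGTCAgccagtatccggg
In Vip the arm reads forward from position -97 relative to the gene start, and in Tac1, Nts and Ntsr1 it lies on the opposite strand from positions -206, -171 and -176. None of these genes was called, and the windows describe the letters only.

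Other genes of the same signalling systems gave no call either. All 11 listed receptors of these peptides were measured, with 7 estimates above and 4 below 0 and a median log2 difference of 0.03. The highest were Adcyap1r1, the PACAP receptor, with 400 ± 125 normalized counts in controls and 451 ± 146 in exposed rats, and Sorl1, a sorting receptor that binds neurotensin, with 117 ± 45.5 and 96.5 ± 26.9 (SD, n = 4 each). Of 12 listed related peptides 7 had a row, with 5 estimates above and 2 below 0 and a median of 0.28. Tac3, the neurokinin B gene, had 147 ± 23.9 and 131 ± 23.0 normalized counts, and Sst, the somatostatin gene, had 38.5 ± 12.02 and 53.8 ± 9.56 (SD, n = 4 each). The receptors of cholecystokinin, neurotensin and the tachykinins act through Gq and phospholipase C, and 12 of 13 listed genes of that path had a row, with 7 estimates above and 5 below 0 and a median of 0.17. Prkcb, a protein kinase C gene, had 337 ± 50.6 and 427 ± 132 normalized counts (SD, n = 4 each). Plcb1, a phospholipase C gene, was higher in every exposed rat, from 317 to 348 normalized counts against 287 to 310, with a log2 difference of 0.18 (adjusted p = 0.999 in limma, exact permutation p = 0.0286). Itpr2, an inositol trisphosphate receptor gene that was picked out after its values were seen, was lower in every exposed rat, from 61.5 to 162 against 164 to 235 normalized counts, with a log2 difference of -0.69 (adjusted p = 0.999 in limma, exact permutation p = 0.0286). These were 2 of the 12 genes, where 1.98% of all genes separated the groups.

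The defining genes of the labelled tissue were present. Of 15 listed hypothalamic genes 14 had a row, Npy being the one without, and 2 were called, both higher in exposed rats, the vasopressin gene Avp with a log2 difference of 1.44 and the oxytocin gene Oxt with 1.05. The list's sum was from 3327 to 5665 normalized counts in controls and from 7512 to 9543 in exposed rats. Without Avp and Oxt, a choice made after seeing the data, the other 12 genes summed to between 1478 and 1818 in controls and between 1768 and 2559.5 in exposed rats, which overlap. Of 8 listed genes of cortical and hippocampal glutamatergic neurons, where Cck is abundant, Slc17a7, Neurod6, Tbr1 and Emx1 had no row, which says nothing of their level, and the 4 others summed to between 21.5 and 69.5 normalized counts in controls and between 39.9 and 59.9 in exposed rats. The thalamus list, without a row for Gbx2, summed to between 137 and 193 in controls and between 169 and 246 in exposed rats. The pituitary list, without rows for Gh1 and Prl, ran from 124 to 824 and from 200 to 702. The sums of these 3 lists and of the mammillary and suprachiasmatic lists overlapped between the groups, and none of their genes was called.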

How the data were processed

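Hypothalamic RNA of 8 rats was sequenced as WTTS-Seq libraries. Quality filtering used the FASTX Toolkit and leading Ts were cut. The authors then aligned reads to Rnor_6.0 using TMAP, grouped the ends of reads into sites, retained sites with at least 16 reads over all libraries and assigned symbols with Cuffcompare. The deposited values are a signal, normalized counts per site, which are reads divided by a size factor, in 1 file per library. The tables were joined by row order, as their symbol columns were identical. Dividing by the smallest step gave whole reads for 100.0% of values to within 0.01 reads. Totals per library ran from 1159811 to 3706778 reads, and precision follows from the reads given beside each gene. From 12.05% to 16.09% of reads lay on sites without a symbol and were left out of gene totals but not of the site fit. Site positions were matched by symbol and the values of 7 libraries to the study's site lists, of which 1 was held only in part. Intervals cover the spread between rats. Coefficients of variation from counting cover counting error only.

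Gene totals, sites and site shares (log2 of site plus 1 minus log2 of total plus 1, for genes with a mean total of at least 10) were tested on log2 values with a pseudocount of 1, with lmFit and eBayes with trend in limma 3.58.1 (R 4.3.3), Benjamini-Hochberg adjustment over each whole table and no covariate. Single values had the exact two-sided permutation test over 70 splits. Alternatives were edgeR 4.0.16 and DESeq2 1.42.0 on the recovered reads, a pseudocount of 0.5 or 5, only features whose mean was at least 10, equal totals, eBayes without trend, the replicate number as a block and each library left out. Python 3.11.15, pandas 2.3.3 and numpy 2.4.6 were used besides. The genes and lists were chosen with earlier results of these data known. All 10 genes are described, and from each list of pathway genes those called and the 2 of highest mean are named. Tacr1, Tacr2, Tacr3 and Itpr2 are named outside that rule. Columns of fold changes and p-values in the study's lists were not used. The labels name no batch. The labels do not say more of the replicates than their numbers, so p-values measure the spread between these libraries.

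Same-numbered libraries did not deviate together. The correlation of their deviations from group means over 12114 genes was -0.235, 0.089 and -0.07 for numbers 1, 2 and 3, so the numbers were not taken as pairs.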

Additional observations from a re-analysis of the deposited data

How the results depend on the processing

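Cck kept its direction and a p under 0.01 in all 16 alternatives, and no other of the 10 genes reached that p in any, the smallest being 0.0179. In the fit over sites the Cck site, at -1.18, was no longer called without the trend. With each library left out, the Cck log2 difference lay between -1.31 and -1.06. The estimate took the other sign in 6 of 16 alternatives for Ntsr2, 5 for Adcyap1, 2 for Ntsr1 and 1 each for Cckar and Vip, none of them called. The number of gene totals called, 50 in the fit reported, was 76 with DESeq2, 29 with a mean of at least 10, 98 without the trend and 24 under the replicate block, and ran from 30 without air control 1 to 90 without cannabis 1. The balance of directions turned or levelled, with 35 lower and 49 higher without air control 3, 47 and 51 without the trend, 30 and 31 without cannabis 3, and 15 and 15 without air control 1. The number of sites called, 375 (254 lower, 121 higher), was 44 with a mean of at least 10 and 229 with the replicate block, and ran from 227 without cannabis 5 to 617 without air control 3. DESeq2 gave 244 lower and 66 higher sites, while 90 were lower and 141 higher without air control 1. Site shares called, 253, were 142 with a mean total of at least 50 and 103 with the replicate block, and ran from 175 without air control 1 to 375 without air control 3. The block gave Cck -1.35 (adjusted p = 1.0 in limma) and changed no call among the 10 genes. The numbers 4 and 5 occur in 1 group each, so the block's estimate rests on the shared numbers 1, 2 and 3. The labels do not say whether the numbers pair animals. The causes were not tested. Depth limits Grp, Cckar and Ntsr1 most, with 37, 95 and 113 reads over 8 libraries.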

Other observations

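The 2 libraries with the fewest reads resembled each other. Over 12114 gene totals, the deviations of air control 4 and cannabis 1 from their group means had a correlation of 0.489, the highest of the 16 pairs of a control with an exposed library, and the lowest was -0.388, between air control 4 and cannabis 2, the library with the most reads. Air control 2 had nearly as few reads as cannabis 1, 1941129 against 1919709, but the correlation of these 2 libraries was -0.155. The part of depth was not tested. These are correlations across genes, which are not independent replicates. Among the peptide genes, control 4 was the lowest control for Cck, Adcyap1 and Vip and not for Tac1, Nts or Grp. Without control 4 the log2 difference of Cck was -1.31, and without cannabis 1 it was -1.09.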
